A study of Homo sapiens with 6 samples.

Results

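Clusters of total RNA that lie in simple repeats or low-complexity sequence were described, with the reads of HuR and FLAG-GFP libraries at the same positions. Simple repeats are tandem copies of a short unit, such as CGG, and low-complexity stretches are dominated by a few bases, such as AT-rich or GC-rich runs. The Total library comes from human embryonic kidney 293 (HEK293) cells that stably expressed an inducible protein, grew with 4-thiouridine (4SU) and doxycycline, and were irradiated at 365 nm. Its RNA was digested with RNase T1 and depleted of rRNA, with no immunoprecipitation, and the labels do not say which protein the cells of this library expressed. A cluster is a short interval of overlapping reads with T-to-C conversions, a mark that crosslinked 4SU leaves in the cDNA. The paper also cites such conversion in RNA that was labelled but not crosslinked. Whether the conversions in Total mark crosslinks was not tested. Members were the clusters whose deposited repeat class was Simple_repeat or Low_complexity, which gave 1293 of 200602 clusters, 774 of them Low_complexity and 519 Simple_repeat. They are called repeat clusters here.

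The 5 other libraries were immunoprecipitated from cells of the same line, grown and irradiated in the same way. Digestion differed, since they were treated with RNase T1 before and after immunoprecipitation. For Total the paper describes RNase T1 on RNA already freed of protein and rRNA. HuR replicates 1 and 2 hold RNA recovered with the RNA-binding protein HuR. G20, G35 and G45 are gel slices near 20, 35 and 45 kDa from cells that expressed FLAG-GFP, which is not an RNA-binding protein, so their reads measure the background of the method. The libraries held 6187300 to 38644636 reads in the tables of groups, which list every site with a read. Each slice and Total is 1 library, and the slices were cut from gels of the same GFP control, with nothing to say that they came from separate immunoprecipitations. Nothing states that the HuR replicates came from separate cultures either, and HuR and GFP came from inducible transgenes, which limits these cells as a model. In Total the HEK293 markers VIM, KRT8, KRT18 and NEFM had 2351, 134, 47 and 4 reads in exons. PTPRC, HBB, ALB, COL1A1 and CD3E, which mark other tissues, had 3, 0, 41, 24 and 0.

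HuR (ELAVL1) is known for binding U-rich and AU-rich elements in 3'UTRs and introns, where it stabilises messages and takes part in splicing. Stretches of A and T are common in such low-complexity sequence, while GC-rich repeats are common near transcription starts and in coding exons of transcription factors. RNase T1 cuts after G, so G-poor repeats can yield long fragments and G-rich repeats short ones. Conversion needs a T that was replaced by 4SU, which a cluster with few T offers rarely. Sequences are written as DNA, in which T stands for U.

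The first set of sequences shows repeat clusters at which Total or the slices had many reads, with every G in capitals because RNase T1 cuts there. All are the plus strand of hg19 (GRCh37), 5' to 3'.
HNRNPUL1, coding sequence, chr19:41809937-41809958: ataacaacaactccaacaacaG
IK, coding sequence, chr5:140038544-140038567: attacGtaccctccacaaccaaGa
CALR, coding sequence, chr19:13054642-13054697: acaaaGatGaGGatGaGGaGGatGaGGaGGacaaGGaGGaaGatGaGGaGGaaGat
MAZ, coding sequence, chr16:29818603-29818631: ccccaacctcGacGGtcGccGtGGccccG
Intron of ENSG00000233928, chrX:34212489-34212505: ttaGttaGttGGtGaGG
MIR3648, noncoding exon, chr21:9825889-9825912: cGccccGGGtGccGcGcGGtGccG
Intergenic, chr21:9827277-9827359: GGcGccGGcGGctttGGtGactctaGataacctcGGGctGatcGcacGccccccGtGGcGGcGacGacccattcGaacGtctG

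The second set shows 3'UTR repeat clusters with more reads in HuR than in the slices, with runs of 5 or more T in capitals because HuR is known for U-rich elements. The same build and strand apply.
ALKBH5, chr17:18111832-18111851: attctatataTTTTTccttg
LUC7L3, chr17:48829680-48829706: TTTTTTTattattattattattaaaag
GINS1, chr20:25427624-25427647: ctttatactttggtctatgacccg
LMNB1, chr5:126172482-126172503: caatattaacctaatcaccatg
BIRC5, chr17:76220095-76220121: tcacacctgtgcctcctcagaggacag
ZIC2, chr13:100638130-100638149: caaaaatatcccttccggag
The label was often looser than the sequence itself. The CALR cluster, with its GA-rich codons, and the LUC7L3 cluster, with its ATT units, look repetitive, whereas those of GINS1, LMNB1 and BIRC5 hold neither a visible unit nor a run of 5 T. Each printed sequence occurs at 1 place in the genome, except that of MIR3648, which has 3 exact matches, 1 on chromosome 21 and the others on an unplaced sequence.

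The label was checked by the share of bases equal to the base 1 to 6 positions before, taking the best spacing. Its median was 55.2% in repeat clusters and 44.4% over all Total clusters, and 26 repeat clusters (2.01%) reached 80%, against 0.0967% of all. Within 50 bases on either side, the best 20-base window reached 80% at 39.4% of repeat clusters, at 63.8% of Simple_repeat and at 23.0% of Low_complexity clusters. Every 25th of the other plus-strand clusters gave 5.09% (209 of 4107). The best of many windows exceeds a single value over the cluster by construction, so the 2 measures are read only between sets.

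All 1293 repeat clusters lay on the plus strand and 0 on the minus strand, although 51.8% of all Total clusters were on the plus strand. LINE and SINE clusters were 52.9% and 51.3% plus. Sites named as simple repeat or low complexity were also all on the plus strand in the other 5 libraries, from 2341 sites in G35 to 39528 in HuR replicate 2. Clusters with no repeat class held minus-strand sequences of the same kind, since 80 on the minus strand and 66 on the plus strand reached a repetitive share of 80%. Repetitive sequences on the minus strand thus carried no such class. Where composition classes are compared below, the 102655 other plus-strand clusters stand beside the repeat clusters, while base means, motifs and regions are set beside clusters of both strands.

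Repeat clusters had a median length of 24 nt (9 to 166) and a median of 8 reads, against 21 nt and 9 reads over all Total clusters. The last base was G in 96.8% of repeat clusters and in 96.7% of all. They lay in 1251 Total groups on 23 chromosomes. Reads were far less even, and 98.8% of the 1915038 reads of repeat clusters (1891150) fell on 11 clusters in 4 groups of chromosome 21, from 9825558 to 9827359. The 1282 other repeat clusters had 23888 reads in all and at most 2098 each.

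That stretch of chromosome 21 did not look like the rest. Its largest cluster, chr21:9827277-9827359, had 1877967 reads in Total, was Low_complexity by label, and had a repetitive share of only 33.8% with 67.5% G and C. In the tables of each other library the overlapping site was annotated as rRNA, with 1091775 reads in G20, 152537 in G35, 100641 in G45, 18651 in HuR replicate 1 and 86718 in HuR replicate 2. The label thus goes against the other libraries' annotation there, and Total was depleted of rRNA by its protocol. Smaller sites around it were named GC_rich, (CGG)n, mir-3648 or mir-3687, or had no name. Read sums, conversions, site shares and calls are given with and without these 11 clusters.

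Low_complexity clusters were richer in A and T than other clusters, whereas Simple_repeat clusters were poorer in T and richer in C. Low_complexity clusters averaged 37.6% A ± 17.2 and 37.4% T ± 14.5 (SD over clusters), with 16% C and 9.0% G. Simple_repeat clusters averaged 31.5% A ± 15.3 and 24.5% T ± 11.7, with 32.3% C and 11.8% G. Over all Total clusters the means were 31.9% A, 28.4% C, 9.42% G and 30.2% T, and over all repeat clusters 35.2% A, 22.5% C, 10.1% G and 32.2% T. Weighted by reads, and so by the large chromosome 21 cluster, repeat clusters had 18.2% T. The SDs overlapped in each case, so that the label shifted the composition without separating the clusters.

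**Figure D1:**
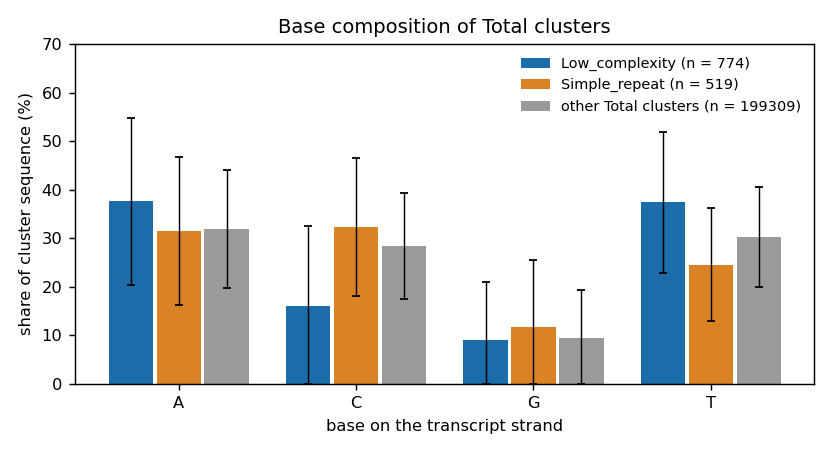
Mean share (%) of each base in the cluster sequence on the transcript strand, for 774 Low_complexity, 519 Simple_repeat and 199309 other Total clusters; bars are means and lines are 1 SD over clusters, cut at 0. Low_complexity has the most A (37.6%) and T (37.4%), and Simple_repeat the most C (32.3%) and the least T (24.5%).

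Clusters were then sorted by composition. A cluster was called rich in a base that made up 50% or more of it, otherwise named for the pair of bases that made up 80% or more, and otherwise mixed. Of the repeat clusters 452 were mixed (35.0%, against 74.8% of the other plus-strand clusters), 279 A-rich (21.6% against 8.69%), 177 T-rich (13.7% against 4.11%) and 163 made of A and T (12.6% against 4.52%). A further 108 were C-rich (8.35% against 3.6%), 49 of A and C, 26 G-rich (2.01% against 0.540%) and 17 of C and G (1.31% against 0.0623%). The last 3 classes, with 12 of C and T, 7 of A and G and 3 of G and T, were small. T-rich clusters were Low_complexity in 164 of 177 cases and A and C clusters Simple_repeat in 46 of 49.

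Motifs were counted on the transcript strand in the central 20 bases of clusters of 20 nt or longer. The letters of TTTTT and ATTTA can overlap within a window, and the motifs were searched only on that strand. TTTTT stood in 15.0% of 1120 repeat clusters and in 6.08% of 146642 other clusters. ATTTA, the core of AU-rich elements, stood in 19.5% against 7.19%. Both were mostly in Low_complexity clusters, at 22.5% and 28.4%, against 3.02% and 5.12% of Simple_repeat clusters. TCTCT was found in 2.68% against 5.32%, GGGG in 2.23% against 2.11%, GAAGA in 0.0893% against 0.312%, and TGTGTG in 0.0893% against 0.0975%.

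The gene region at the midpoint differed between the classes. Low_complexity clusters lay in 3'UTRs in 39.9% of cases, in introns in 33.1% and in coding sequence in 13.2%. Simple_repeat clusters lay in introns in 44.1%, in coding sequence in 21.2% and in 3'UTRs in 18.1%. Over all Total clusters 22.1% were in 3'UTRs, 44.0% in introns and 19.8% in coding sequence. Of all repeat clusters, 5'UTRs held 5.18% (67), against 1.78% of all Total clusters, noncoding exons 3.48% (45) and intergenic sequence 6.26% (81).

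**Figure D2:**
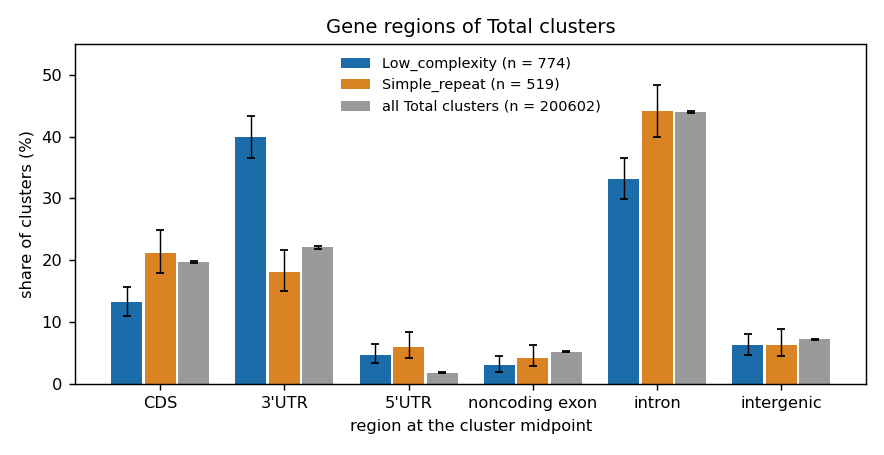
Share (%) of clusters in each gene region at the cluster midpoint, for 774 Low_complexity, 519 Simple_repeat and all 200602 Total clusters; lines are 95% Wilson intervals. Low_complexity stands out in 3'UTRs (39.9%), and both repeat classes lie above all clusters in 5'UTRs.

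Composition followed the region. The 403 repeat clusters in 3'UTRs averaged 40.4% A and 40.4% T with 6.02% G, whereas the 212 in coding sequence averaged 37.3% C and 23.2% G with 18.4% T. The other clusters of coding sequence averaged 32.4% C and 14.5% G, and the other clusters of 3'UTRs 32.6% T. T-rich repeat clusters lay in 3'UTRs in 63.8% of cases, against 38.5% of the other T-rich clusters on the plus strand. G-rich repeat clusters lay in coding sequence in 13 of 26 cases and C and G clusters in 9 of 17, or 9 of 11 outside chromosome 21.

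The repeat clusters were spread over 876 host genes. Of these, 652 held 1 cluster, 224 held 2 or more and 15 held 5 or more, while 81 clusters had no host. SLIT2, which encodes a secreted axon guidance protein, held 13, of which 12 were intronic, with 115 reads in all. ZNF703, a zinc finger repressor, held 11, of which 10 were in coding sequence. MAZ, another zinc finger factor, held 10 and POLR2A, the largest subunit of RNA polymerase II, held 7, all in coding sequence, with 532 and 995 reads. FOXC1, a forkhead transcription factor, held 6 in coding sequence, MGRN1, a ubiquitin ligase, 6 in introns, and PABPN1, the nuclear poly(A)-binding protein, 3 in coding sequence and 3 in its 3'UTR.

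Conversions in Total were summarised as T-to-C events per 100 reads. The sum over repeat clusters gave 97.4, over all Total clusters 50.9 and over clusters with no repeat class 23.4. The first value came from the large chromosome 21 cluster, which had 99 events per 100 reads at 12 locations, and without the 11 clusters it was 23.4. Whether the T-to-C events of that large cluster were left by 4SU was not tested. The median over clusters was 28.6 for repeat clusters and 25 for all, with 33.3 for Low_complexity and 21.4 for Simple_repeat. At sites overlapping the 11 clusters the other libraries had 4.27 (G20), 9.38 (G35), 13.1 (G45), 2.26 (HuR replicate 1) and 14.4 (HuR replicate 2) events per 100 reads. These rates are over whole sites, of 1085 nt in G20 at the large cluster, which is itself 83 nt long. They thus do not compare the same bases. In Total the median over the 11 clusters was 5.76.

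Outside that stretch, conversion per read in repeat clusters rose with the T content. Repeat clusters with up to 20% T had 12.7 events per 100 reads (n = 305), those of 20 to 40% T 28.0 (n = 554), those of 40 to 60% T 39.3 (n = 381) and those above 60% T 51.1 (n = 42). Per T read, the order turned round, from 4.79% of T readings converted in the lowest class to 2.90% in the highest. Median reads over the same classes were 11, 9, 7 and 7.5. The other Total clusters had 68.0, 29.9, 28.2 and 38.7 events per 100 reads in these classes. Their largest clusters were kept, and over all of them the rate went from 46.9 to 26.8 without the 10 with the most reads. The classes were not summed without those 10, so the 2 orders are not comparable. All these rates are sums over reads, and the lowest class of repeat clusters holds the HNRNPUL1 cluster, with 2098 reads and 7.34 events per 100.

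The paper's own definition of a cluster asks for 2 or more conversion locations and 5 or more reads. In the deposited clusters, 549 repeat clusters (42.5%) did not reach 2 locations, against 46.0% of all Total clusters. The share that did rose with reads, from 49.1% of repeat clusters with 5 to 9 reads to 62.0%, 81.8% and 91.7% with 10 to 24, 25 to 99 and 100 or more. In the other clusters the shares were 40.6%, 63.2%, 83.0% and 87.5%. At 5 to 9 reads 57.1% of Low_complexity clusters had 2 or more locations (95% Wilson interval 52.6 to 61.5) and 35.3% of Simple_repeat clusters, and from 25 reads on the intervals of both included the value of the other clusters. Intervals cover counting error only, since the reads carried no molecular identifiers.

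**Figure D3:**
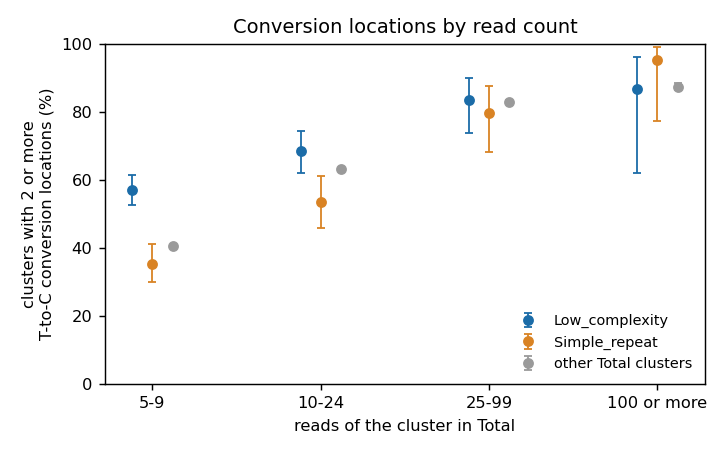
Share (%) of Total clusters with 2 or more T-to-C conversion locations by the reads of the cluster, for Low_complexity, Simple_repeat and other clusters; lines are 95% Wilson intervals. Low_complexity lies above the others at 5 to 9 reads (57.1%), and the 3 sets come together at higher counts.

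A Total cluster was counted as having a site in another library where a group of that library shared 1 base or more on the same strand. Of the 1293 repeat clusters 356 had a site in G20, 27.5% (95% Wilson interval 25.2 to 30.03), against 17.8% of all Total clusters. G35 had a site at 156, 12.1% (10.4 to 14.0), against 5.19%, and G45 at 191, 14.8% (12.9 to 16.8), against 6.35%. In HuR replicate 1 the count was 416, 32.2% (29.7 to 34.8), against 37.9%, and in HuR replicate 2 it was 738, 57.1% (54.4 to 59.7), against 49.4%. The slices thus each had a larger share of repeat clusters than of all clusters, while HuR replicate 1 lay under its background and replicate 2 above it.

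Over both HuR replicates the mean share was 44.6% ± 17.6 (SD, n = 2), and over all Total clusters 43.6% ± 8.14. That difference is smaller than the spread between the replicates. Both HuR values lay above all 3 slice values, but so did they over all clusters, and an exact two-sided permutation test of 2 against 3 libraries cannot go below a p of 0.2. Depth moves with these shares, since HuR replicate 1, G35 and G45 had 9525265, 6187300 and 7539669 reads and HuR replicate 2 and G20 had 32111810 and 38644636. Its part in the result was not tested. Without the 11 chromosome 21 clusters the shares were 26.9% (G20), 11.3% (G35), 14.1% (G45), 31.7% (HuR replicate 1) and 56.8% (HuR replicate 2).

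The libraries divided the repeat clusters unevenly. A site in HuR and in a slice was found at 292 (22.6%, against 13.5% of all Total clusters), in HuR alone at 519 (40.1% against 45.8%), in a slice alone at 125 (9.67% against 7.88%) and in neither at 357 (27.6% against 32.9%). All 5 libraries had a site at 56 repeat clusters, 4.33% against 1.51%. Low_complexity clusters had a mean HuR share of 53.6% ± 22.6 and Simple_repeat clusters of 31.3% ± 10.2 (SD, n = 2 each), with 13.2% and 10.4% in G35 and 16.1% and 12.7% in G45. In G20 the order was the reverse, 25.7% and 30.3%.

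Base composition ordered the sites. Of T-rich repeat clusters 94.4% had a site in HuR replicate 2 and 71.2% in replicate 1, and the slices G20, G35 and G45 had sites at 31.6%, 28.2% and 36.7%. Of the other T-rich clusters on the plus strand 89.3%, 73.1%, 19.5%, 12.3% and 20.0% did, in the same order. Both HuR replicates were thus near the values of other T-rich clusters, and each slice was above them with intervals that did not overlap. Repeat clusters of A and T had sites in 87.1% (HuR replicate 2) and 36.2% (replicate 1), against 74.5% and 43.8% of the other A and T clusters, and in 2.45 to 5.52% in the slices. A-rich repeat clusters had 55.6% and 16.8% in HuR, against 38.0% and 18.0% of the other A-rich clusters. In G20, G35 and G45 they had 2.15%, 1.43% and 1.08%, against 4.46%, 1.17% and 1.27%, so that few sites in the slices were found at A-rich clusters of either kind.

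In the G-rich, C-rich and C and G classes, G20 had the largest share of the 5 libraries. G-rich repeat clusters had a site in 88.5% (G20), 34.6% (G35), 38.5% (G45), 15.4% (HuR replicate 1) and 42.3% (HuR replicate 2), with n = 26, and the other G-rich clusters on the plus strand had 83.8%, 26.4%, 32.7%, 34.5% and 56.1%. C and G clusters had 100%, 58.8%, 64.7%, 35.3% and 47.1% in that order, with n = 17, and without chromosome 21 100%, 36.4%, 54.5%, 18.2% and 27.3%, with n = 11. The other C and G clusters had 71.9%, 25%, 20.3%, 15.6% and 32.8%, with n = 64. C-rich clusters had 48.1% in G20, against 29.2% of the other C-rich clusters, 13.0% in G35, 15.7% in G45, and 23.1% and 28.7% in HuR. Clusters of A and C were low everywhere, from 2.04% in G35 and G45 to 8.16% in both HuR replicates. The mixed class had 39.2% in G20, against 18.8% of the other mixed clusters, and 46.2% in HuR replicate 2, against 49.0%.

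**Figure D4:**
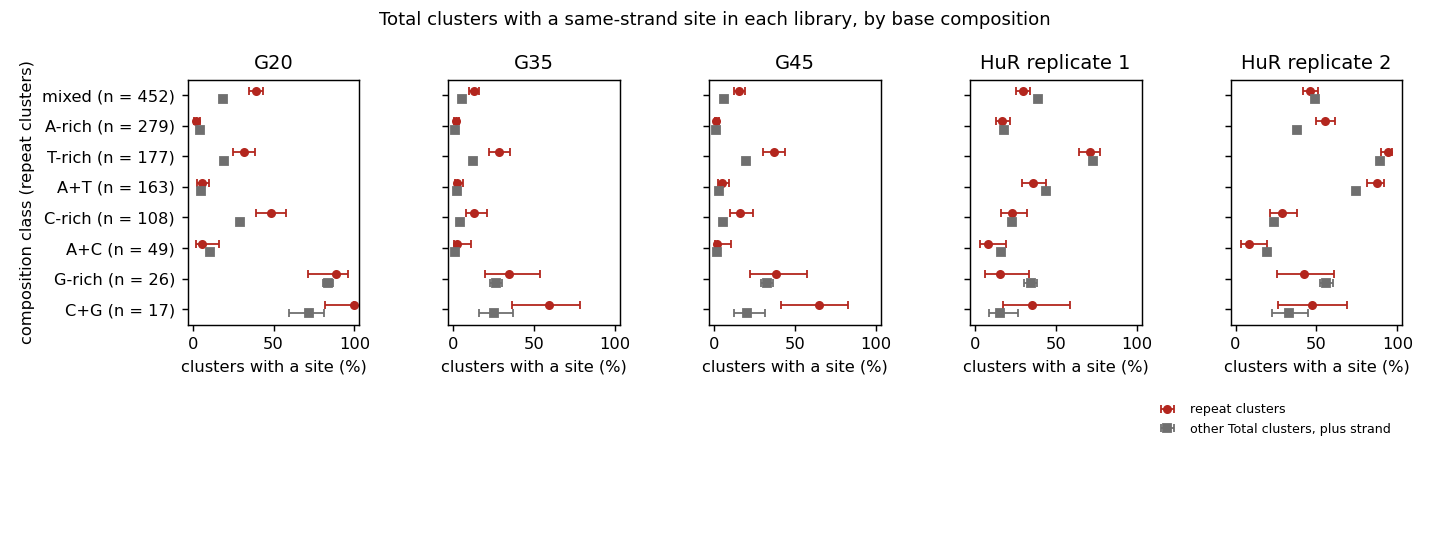
Share (%) of Total clusters with a same-strand site in each library, by composition class, for repeat clusters (red circles, n on the axis) and the other plus-strand Total clusters (grey squares); lines are 95% Wilson intervals. In G20 the G-rich (88.5%) and C and G (100%) repeat clusters are highest, and in HuR replicate 2 the T-rich (94.4%) and A and T (87.1%) ones.

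Regions differed as well. Repeat clusters in coding sequence had a G20 site in 74.1% of cases, against 38.5% of the other coding clusters, and those in 5'UTRs in 73.1% against 46.5%. In coding sequence both HuR replicates were above the other clusters too, with 19.8% against 15.1% and 34.4% against 24.4%. Repeat clusters in 3'UTRs had a HuR replicate 2 site in 78.4%, against 61.9%, and a HuR replicate 1 site in 46.4%, against 49.0%. G35 and G45 had 14.1% and 18.9% there, against 5.68% and 7.46%. In introns the shares were 6.19% in G20 and 54.2% in HuR replicate 2, close to the 5.70% and 54.9% of other intronic clusters. Shares by T content were taken outside the chromosome 21 stretch. The share in HuR replicate 2 also rose with T content, from 27.9% of repeat clusters with up to 20% T to 48.6%, 87.4% and 97.6%, as it did over the other clusters, with 26.9%, 46.5%, 77% and 97%. G20 was high at both ends, with 52.5%, 19.1%, 14.7% and 54.8%, against 33.2%, 16%, 10.9% and 43.1%. G45 had 21%, 7.22%, 11.5% and 78.6%, against 8.99%, 5.05%, 7.46% and 52.7%.

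Reads at these sites were scaled to 1000000 reads of the library's groups table (RPM). A site's reads follow both the amount of an RNA and how often it was recovered, which cannot be told apart here. Over all repeat clusters the sums were 28676 RPM in G20, 24970 in G35, 13690 in G45, 2479 in HuR replicate 1 and 4645 in HuR replicate 2, with the slices all above HuR. Without the chromosome 21 stretch they were 298, 282, 303, 365 and 1936 RPM, a HuR mean of 1150 ± 1111 (SD, n = 2). The order was then turned, since HuR replicate 1 lay near the slices and HuR replicate 2 far above all other libraries.

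T-rich clusters carried most of the HuR replicate 2 reads outside chromosome 21. Their sites had 37.9 RPM in G20, 83.1 in G35, 118 in G45, 86.6 in HuR replicate 1 and 1254 in HuR replicate 2. HuR replicate 1 thus lay within the range of the slices. The 4219 other T-rich clusters on the plus strand had 282, 2807, 2711, 2184 and 10954 RPM in the same order. Of the 40253 reads of T-rich repeat clusters in HuR replicate 2, 10920 were on 1 PABPN1 site, which also overlaps a mixed cluster. The median HuR replicate 2 site had 56.5 reads in T-rich repeat clusters and 12 over all repeat clusters outside chromosome 21. Outside it, conversion at the sites was 97.4 and 104 events per 100 reads in the HuR replicates, and 19.6, 62.2 and 52.7 in G20, G35 and G45.

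The deposited names of the overlapping sites matched the composition. In HuR replicate 2, 641 of 733 sites (87.4%) were named simple repeat or low complexity, with 410 AT_rich sites of 26587 reads and 23 T-rich sites of 22160 reads. In HuR replicate 1 the count was 348 of 420, with 193 AT_rich sites of 532 reads. In G20 it was 270 of 325 (83.1%), with 52 AT_rich sites of 166 reads, 42 GC_rich sites of 8354 reads and 24 (CGG)n sites of 1143 reads. Of the GC_rich reads of G20, 4784 were on 1 chromosome 21 site. G20 thus had more reads on GC_rich than on AT_rich names. In HuR replicate 2, 86718 of 149157 reads were on the rRNA-annotated site, and most of the others were on AT_rich and T-rich names.

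HuR and GFP were compared at each Total cluster with edgeR's quasi-likelihood test on counts of overlapping reads, with the 3 slices as the GFP group. The slices differ in gel size and may share an immunoprecipitation, so p-values and SEs measure the spread between these libraries and not between independent replicates. Of 200602 Total clusters 6374 had enough reads to be tested, among them 110 repeat clusters, and 1183 repeat clusters were not tested. After Benjamini-Hochberg adjustment over the 6374, 25 repeat clusters (22.7%) were higher in HuR, against 35.2% of all tested, and 16 (14.5%) were lower, against 3.80%. Of the 16 lower, 8 were in the chromosome 21 stretch and 8 outside it. The median log2 change was 2.37 over the tested repeat clusters and 3.46 over all tested clusters, a difference of -1.09 for repeat clusters relative to all. With clusters at 0 in a whole group set to their bound, the medians were 2.37 and 3.04. The filter on low counts can be passed through 1 group alone, and 4 repeat clusters and 1238 of all tested had no read in any slice. Counts and medians thus describe the clusters that passed, not all repeat clusters.

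The calls moved when a library was left out. Without HuR replicate 1, 1 repeat cluster was higher and 0 lower of 451 tested (136 at an unadjusted p under 0.05), and without HuR replicate 2, 0 were called either way of 150 (5 at an unadjusted p under 0.05), the lone HuR library being assumed to vary like the slices. Over all clusters those fits called 21 of 38186 and 0 of 6783, so a call lost there says little. For GINS1 the log2 change was 8.72 with all libraries, and 8.66 and 6.56 without HuR replicates 1 and 2. For the PABPN1 clusters, 4.43 and 6.14 became 0.11 and 1.26 without HuR replicate 2. Without G20, G35 or G45, 10, 16 or 17 repeat clusters were higher and 1, 37 or 41 lower. Without G20 the change at chr21:9825558-9825687 went from -7.22 to -1.79, and the named MAZ, ZNF703 and MIR3648 clusters had too few reads to be tested. DESeq2 called 36 higher and 15 lower. With library totals in place of edgeR's scaling, the median log2 change of all clusters moved by -1.05, and 11 were higher and 15 lower. Neighbouring clusters in 1 site of another library share that site's reads, and with 1 cluster for each Total group 22 were higher and 10 lower.

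The clusters called higher and lower are described here by place and sequence. Many of those named below passed the filter on low counts only through the group in which they were high. Their traits thus describe the calls and test no difference. The 110 tested clusters had 51 in 3'UTRs, 14 in introns and 26 in coding sequence, with means of 37.5% T and 40.5% G and C. The 69 that did not pass had 30 in 3'UTRs and 40.2% T. Of the 25 higher in HuR, 21 were in 3'UTRs, 4 in introns and 0 in coding sequence. They had a mean of 44.6% T, and 11 were T-rich and 14 mixed. Of the 16 lower, 6 were in coding sequence, 1 in a 5'UTR, 2 in noncoding exons and 7 intergenic, with a mean of 14.5% T and 75.7% G and C. Outside chromosome 21 the 8 lower clusters were 6 in coding sequence, 1 in a 5'UTR and 1 intergenic, with 14% T and 69.6% G and C. Of T-rich repeat clusters 46 were tested, and 11 (23.9%) were higher and 0 lower, against 36.5% higher of 1164 other T-rich clusters.

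**Figure D5:**
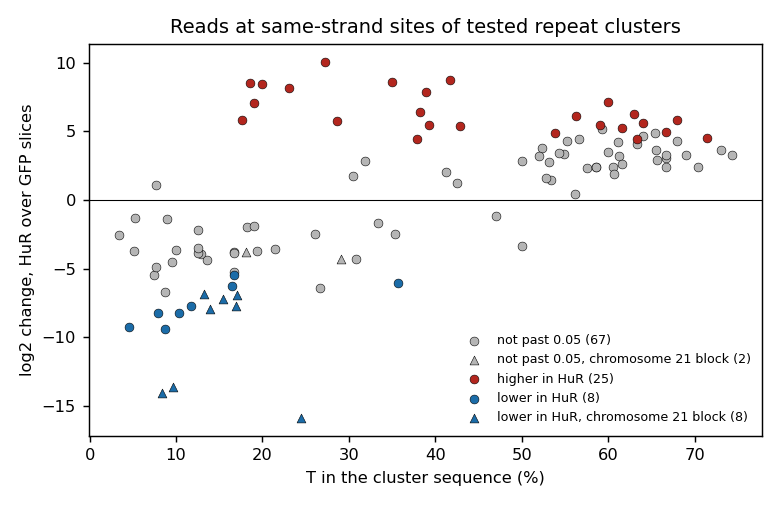
Log2 change of HuR over the GFP slices at same-strand sites (edgeR) against the T content (%) of the cluster, for the 110 tested repeat clusters; colours mark the adjusted p threshold of 0.05 and triangles the chromosome 21 stretch. The 25 higher clusters have 17.6 to 71.4% T and the 16 lower ones 4.55 to 35.7% T.

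Among named genes, the repeat clusters higher in HuR had most of their reads in HuR replicate 2. The GINS1 3'UTR cluster, in a gene for a subunit of the GINS replication complex, had 2, 2 and 0 reads in G20, G35 and G45, and 113 and 1909 in HuR replicates 1 and 2. The slices were near 0 and both HuR replicates above them. Its log2 change was 8.72 ± 2.20 (approximate SE). With so few slice reads the cluster passed the filter on low counts through HuR alone, so that no p is given. The printed cluster is 24 nt long with 41.7% T and no run of 5 T, whereas the HuR replicate 2 site spans 89 nt, is 62.9% T and holds TTTTT 3 times.

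The ALKBH5 cluster, in a gene for an RNA demethylase, had 2, 0 and 4 reads in the slices and 45 and 864 in HuR. Its log2 change was 7.12 ± 2.26. The ALKBH5 cluster also passed the filter on low counts through HuR alone, and no p is given. The LUC7L3 cluster, in a gene for a splicing factor related to U1 snRNP proteins, had 0, 7 and 3 reads in the slices and 8 and 830 in HuR. Here HuR replicate 1, at 0.840 RPM, lay below G35 at 1.13 RPM, and the groups overlapped. Its log2 change was 6.27 ± 2.21, with an adjusted p of 0.0171 by edgeR's quasi-likelihood test with Benjamini-Hochberg adjustment.

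PABPN1 held a pair of named clusters in its 3'UTR, which also belongs to the read-through gene BCL2L2-PABPN1. At chr14:23795225-23795261 the reads were 89, 170 and 221 in the slices and 126 and 10920 in HuR. At chr14:23795155-23795186 they were 49, 34 and 57, and 87 and 10920. Both share 1 HuR replicate 2 site of 266 nt, so that the 10920 reads are counted at each, of 62167 in that library outside chromosome 21. Log2 changes were 4.43 ± 1.72 and 6.14 ± 1.84, with adjusted p of 0.0299 and 0.00708 by edgeR's quasi-likelihood test with Benjamini-Hochberg adjustment. At the first cluster HuR replicate 1 (13.2 RPM) lay between G20 (2.30) and G35 (27.5), and so within the slices.

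For clusters with no reads in any slice, folds are lower bounds against 3 reads per library, averaged over the slices (0.320 RPM). LMNB1, which encodes lamin B1 of the nuclear lamina, had 66 and 263 HuR reads in its 3'UTR cluster, 7.56 RPM ± 0.892 (SD, n = 2), at least 23.6-fold higher than the slices. Intronic clusters of GNPAT, an enzyme of plasmalogen synthesis (chr1:231378515-231378534), AUTS2, linked to neural development (chr7:69088503-69088528), and WAC, an adaptor protein (chr10:28884328-28884345), had 13 and 117, 16 and 73, and 10 and 65 HuR reads. They were at least 7.82-fold, 6.17-fold and 4.80-fold higher. All 4 had reads in both HuR replicates. They passed the filter on low counts through HuR alone, so that no p is given for them.

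BIRC5, which encodes the apoptosis inhibitor survivin, had 1 read in G20, 0 in G35 and G45, and 15 and 551 in HuR at its 3'UTR cluster. ZIC2, a zinc finger transcription factor, had 1, 0 and 0, and 14 and 535. With 1 slice read each, both passed the filter on low counts through HuR, and no p is given. The printed clusters have only 18.5% and 20.0% T, but the HuR replicate 2 sites over them span 182 and 66 nt and have 44.5% and 43.9% T. Both clusters thus lay within longer and T-richer sites.

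The repeat clusters lower in HuR had wide G20 sites. In MAZ, the printed cluster had 474, 13 and 2 reads in G20, G35 and G45, and 1 and 0 in HuR, with the G20 reads on a site of 562 nt. Its log2 change was -8.21 ± 2.87. The cluster passed the filter on low counts through the slices alone, so that no p is given. In ZNF703, clusters at chr8:37555807-37555874 and chr8:37554972-37555074 shared a G20 site of 1412 nt with 1661 reads. The first had 26 and 4 reads in G35 and G45, and 0 and 10 in HuR, and the second 1 and 24, and 6 and 16. Log2 changes were -7.68 ± 2.40 and -6.24 ± 2.24. Both ZNF703 clusters passed the filter through the slices alone too, and no p is given. At the second of them G35 (0.162 RPM) lay below both HuR replicates (0.630 and 0.498), so that the groups overlapped.

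On chromosome 21, the printed MIR3648 cluster had 4784, 4 and 22 reads in the slices and 0 in both HuR replicates. In RPM the slices had 124, 0.646 and 2.92, so the difference in size rests on G20. The 4784 G20 reads belong to 1 site of 820 nt that also covers the 5 repeat clusters next to it. The largest cluster of the stretch had 28252, 24653 and 13348 RPM in the slices and 1958 and 2701 RPM in HuR, with every slice above both HuR replicates. These are reads of whole overlapping sites, of 1085, 589, 689, 331 and 614 nt in that order. They thus do not compare the same bases. The log2 change at this cluster, -3.75 ± 3.40, did not pass, with an adjusted p of 0.355 by edgeR's quasi-likelihood test with Benjamini-Hochberg adjustment.

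Some clusters with many Total reads had few elsewhere. HNRNPUL1, a gene for an RNA-binding nuclear protein, held the largest cluster outside chromosome 21, with 2098 Total reads and 39, 0 and 0 reads in G20, G35 and G45, and 0 in both HuR replicates. IK, which encodes a splicing factor, had 360 Total reads and 9 in G20, with 0 in the other 4 libraries. Neither was tested. Their sequences hold 1 and 2 G, and 9.09% and 16.7% T, with 7.34 and 3.06 conversion events per 100 reads in Total.

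CALR, which encodes the endoplasmic reticulum chaperone calreticulin, had 407 Total reads at its GA-rich cluster. The slices had 376, 45 and 37 reads and HuR 12 and 197, which was 9.73, 7.27 and 4.91 RPM against 1.26 and 6.13 RPM, so the groups overlapped. Its log2 change was -1.39 ± 1.93 with an adjusted p of 0.56 by edgeR's quasi-likelihood test with Benjamini-Hochberg adjustment. The intronic cluster of ENSG00000233928 on chromosome X, of only 5 Total reads, had 212, 326 and 432 reads in the slices and 1677 and 553 in HuR. In RPM these were 5.49, 52.7 and 57.3 against 176 and 17.2, so HuR replicate 2 lay inside the range of the slices. Its log2 change was 2.02 ± 1.60 with an adjusted p of 0.284 by edgeR's quasi-likelihood test with Benjamini-Hochberg adjustment.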

How the data were processed

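The PAR-CLIP libraries of HEK293 cells were used. As the labels and methods state, the authors sequenced single reads of 50 bp, removed adapters, mapped to hg19 with Bowtie and ran PARalyzer, which retained reads that mapped to 1 place and held no more than 2 mismatches, all T-to-C. Deposited values are counts of reads, conversion locations and conversion events per group or cluster, which the authors did not normalize. The repeat class and the names of sites are the authors' annotation. How the repeat class was assigned, and whether PCR duplicates were removed, is not given in the sources used here.

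Sequences came from the GRCh37 assembly, which equalled the deposited sequence at all 1293 repeat clusters and at 4828 of 4833 minus-strand clusters checked. Gene regions came from GENCODE release 44 mapped to GRCh37, at the cluster midpoint on the same strand, taking coding sequence first, then 3'UTR, then 5'UTR, then noncoding exon and last intron. Reads of all groups sharing 1 base or more on the same strand were summed for each Total cluster, and library sizes were the totals of the groups tables. The cluster tables of HuR and the slices were not used here.

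HuR and the 3 slices were compared with edgeR 4.0.16 (TMM, filterByExpr, glmQLFit, glmQLFTest) at an adjusted p of 0.05, in R 4.3.3. The approximate SE is the log2 change divided by the square root of F. On 6374 simulated features, 170 of 200 changed by 16-fold were recovered and 2 unchanged ones were called. The simulation used a fixed spread and no difference between slices beyond depth, and changed only features with many expected reads. Its figures thus need not hold for the real counts. Alternatives were DESeq2 1.42.0, library totals, no filter, 1 cluster for each group, either strand, an overlap of 10 bases, groups of 5 reads or more, stricter clusters (2 conversion locations and 5 reads), totals without chrM and the 10 largest groups, and leaving out each library. Python 3.11.15, pandas 2.3.3 and scipy 1.17.1 were used.

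Repeat clusters and lists were chosen with earlier results of these data known. Genes were named for the 10 clusters with the most Total reads, the 5 highest by the lower HuR replicate, the 5 highest by the lowest slice, and the 10 of smallest edgeR p in each direction. Genes named for their number of repeat clusters were chosen after those numbers were seen.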

Additional observations from a re-analysis of the deposited data

How the results depend on the processing

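A value is given here where an alternative left its 95% interval or its SD, or changed a count by over 1.5 times, so that precise sums appear for small shifts. By this measure 36 alternatives moved and 50 did not, the latter including 18.2% T weighted by reads, within the SD over clusters. With stricter clusters, 40.2% lay in 3'UTRs, 34.5% in introns and 12.9% in coding sequence, conversion was 97.6 events per 100 reads, the G35 and G45 shares were 15.6% and 16.9%, and G20 and G45 had 28579 and 13575 RPM. Counting only groups of 5 or more reads, the shares fell to 15.9% (G20), 7.27% (G35), 7.42% (G45) and 25.8% (HuR mean). With totals without chrM and the 10 largest groups, G20, G35 and G45 had 127436, 31200 and 17425 RPM. Without the chromosome 21 clusters, an alternative chosen after seeing the data, conversion was 23.4, the sums were 298, 282, 303 and 1150 RPM (HuR mean), and 8 clusters were lower in HuR. Conversion was 25.3 without the 10 clusters with the most reads, and 28.6 as a median over clusters. By edgeR, library totals gave 11 higher. No filter gave 5 higher and 2 lower of 936 tested, and 1 cluster for each group 10 lower. Leaving out 1 library gave 0 to 17 higher and 0 to 41 lower. The cause of these moves was not tested, except that a setting with fewer clusters, groups or libraries holds fewer by construction. Of 192 alternatives for the 22 named clusters that passed, 108 kept the call, 84 lost it and 0 turned the direction. Settings in which a cluster had no result, as for MAZ, ZNF703 and the printed MIR3648 cluster without G20, are not among the 192. Of the losses, 22 and 19 came without HuR replicates 1 and 2 and 21 with no filter, settings that made few calls over all clusters. Without HuR replicate 2 the PABPN1 log2 changes fell to 0.11 and 1.26. No paired analysis was possible because the slices carry no replicate numbers and differ in gel size.

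Depth limits the sites: 3 reads are 0.0776 RPM in G20 and 0.485 RPM in G35, so a missing site there is not detectable rather than absent.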
